A study of Sus scrofa with 6 samples.

Results

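The uterine samples of an early pregnant and a non-pregnant sow group were compared across genes, with 1 array for each stage, so that 2 of the 6 arrays of the series entered the comparison. The arrays were chosen by their titles and not by any measured value. The series covered 2 tissues, ovary and uterus, of domestic pigs at 3 stages, non-pregnant, early pregnant and late pregnant, and its design gives 9 sows with 3 at each stage. One array stood for each tissue and stage, and whether the RNA of the 3 sows of a stage was pooled, and on which day the early stage was taken, is stated in neither the labels nor the processing notes. Breed, age, cycle day and any treatment of the sows are not stated either. Tissue was washed in phosphate-buffered saline and frozen, and total RNA was labelled and hybridised to Affymetrix porcine arrays, on which a probe set, a group of short probes to 1 transcript, returns 1 signal. With 1 array a group no difference has a replicate check and no test was possible, so every ratio below describes these arrays.

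In the pregnant sow the conceptuses do not invade the uterine wall. They elongate, attach to the lining epithelium, and are fed by secretions of the uterine glands, which progesterone sustains. Among the secreted proteins are uteroferrin (ACP5), an iron-carrying acid phosphatase, uterine plasmin/trypsin inhibitor (UPTI), uteroferrin-associated protein (UABP-2), a member of the serpin family, and retinol-binding protein (RBP4). The trophoblast, the outer layer of the conceptus, makes pregnancy-associated glycoproteins (PAGs), oestrogen and interferons, and embryonic red cells carry the embryonic globin HBE1.

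Signals were raised to a floor of 81.7, the 40th percentile of all signals of the series, and a log2 ratio of early pregnant over non-pregnant was taken for the 15836 probe sets above that floor on either uterine array. Of these, 1388 (8.76%) were higher by 2-fold or more on the early pregnant array and 1631 (10.3%) were lower by as much. Through 1 probe set a gene, 518 of 5642 named genes (9.18%) reached 2-fold on the higher side and 581 (10.3%) on the lower, and these shares are the background for every list below. The far end was one-sided. At 16-fold or more 50 genes were higher and 4 lower, and at 64-fold or more 17 were higher and 0 lower. The median gene lay at -0.19. Centring the ratios on the median probe set, a shift of 0.17, turned the split to 1797 higher and 1104 lower probe sets, or 61.9% of calls higher against 46.0% as deposited. Where a gene had 2 measured probe sets, their ratios differed with an SD of 0.77 on the log2 scale over 1548 genes. This is a spread between probe sets on the same arrays and holds no difference between sows, dissections or hybridisations. Of 289 such genes whose brightest probe set reached 2-fold, the next probe set lay in the same direction for 265 and also reached 2-fold for 146. In the ovary of the same stages, of 15237 probe sets, 2.45% stood at 2-fold or more on the higher side and 2.15% on the lower side.

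**Figure D1:**
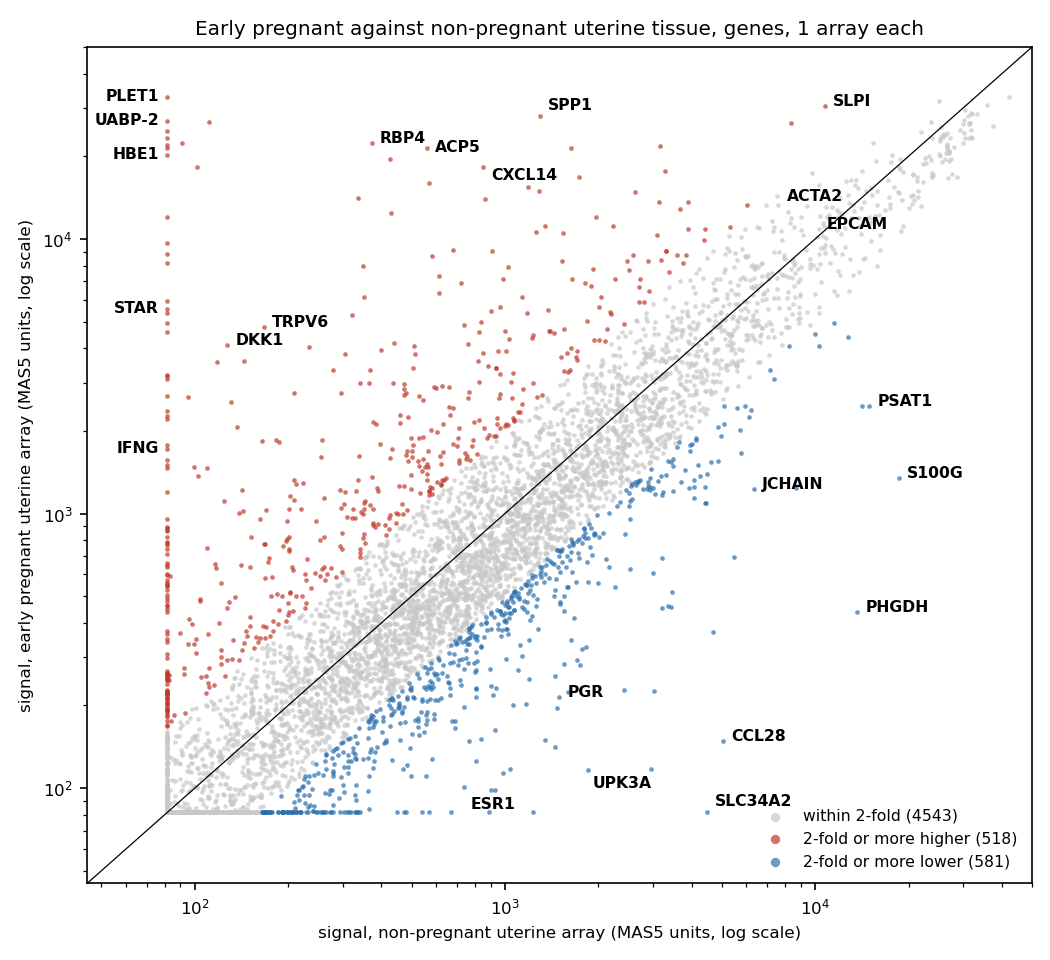
Signal of each of the 5642 genes on the non-pregnant (x axis) and early pregnant (y axis) uterine array in MAS5 units on log scales, raised to the floor of 81.7, with genes 2-fold or more higher in red and lower in blue. The column of red points at the left edge holds genes at the floor on the non-pregnant array, among them PLET1, UABP-2 and HBE1, while PHGDH, S100G and CCL28 lie far below the diagonal.

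The labels name the tissue myometrium, the smooth muscle wall of the uterus, and the arrays held strong epithelial signal as well. The epithelial adhesion gene EPCAM read 10256 on the non-pregnant and 10845 on the early pregnant array. The 21 epithelial genes on the array summed to 69974 and 61059 on these uterine arrays, against 3534 on the non-pregnant ovary array. The 20 smooth muscle genes summed to 30520 and 42432 in the uterus and to 63548 in the non-pregnant ovary. Desmin (DES), a filament protein of muscle, lay near the floor at 90.6 and 70.4. MYLK, MYOCD, PDLIM3 and ITGA8 were likewise under the floor on 1 of the 2 arrays and near it on the other. Of the 20 genes 15 were above the floor on both. The smooth muscle actin ACTA2 read 7613 and 13313, ACTG2, the enteric-type actin, 437 and 2984, and the myosin light chain MYL9 208 and 623. ACTG2 and MYL9 were the 2 of 20 smooth muscle genes at 2-fold or more, both higher, and the list's median was 0.31 above that of all genes. The samples are therefore called uterine tissue here, since strong epithelial signal and signal of some smooth muscle genes were both present. In such bulk tissue, fewer cells of a type and less RNA per cell cannot be told apart.

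Secreted proteins and a sulphotransferase were among the largest differences with signal on both arrays. UPTI read 91.2 on the non-pregnant and 22272 on the early pregnant array, 244-fold higher, and 5246 on the late pregnant array. A second, dimmer UPTI probe set read 62.4 and 146, a log2 ratio of 0.84. SULT2A1, which adds sulphate to steroids, read 111 and 26616, 239-fold higher. RBP4, the plasma carrier of retinol, read 372 and 22309, 59.95-fold higher. On the non-pregnant array UPTI and SULT2A1 lay below the median signal of 154 and RBP4 above it, and all 3 were bright on the early array. DPP4, a membrane peptidase found on secretory epithelium, read 337 and 14053. ACP5 read 559 and 21477, 38.4-fold higher. DKK1, a secreted Wnt inhibitor, read 127 and 4120, and TRPV6, an epithelial calcium channel, 167 and 4761. The remaining genes of the 12 highest were BPI, a bactericidal protein of secretions and granules, at 118 and 3553, the ribonuclease RNASE1, TMEM45A, PLBD1 and FNTA. For PLBD1 and FNTA other probe sets of the gene disagreed, with log2 ratios down to -0.38 for PLBD1 and -0.58 for FNTA against 7.49 and 5.52, so that their ratios are uncertain.

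For genes at the floor on the non-pregnant array only a lower bound of the ratio can be given, and the bound depends on the floor. PLET1, a surface protein of trophoblast and some epithelia, read 49.1 and 32821, at least 402-fold higher, with a second probe set at 2.66 on the log2 scale. UABP-2 read 63.8 and 26905, at least 329-fold higher. DPPA5, an RNA-binding protein of pluripotent cells, read 13.8 and 24720, at least 303-fold higher, and only 266 on the late pregnant array. MEP1B, the beta subunit of the protease meprin, and SERPINA3-2, a protease inhibitor, were at least 285-fold and 263-fold higher, with MEP1B at 5.6 and 23272 and SERPINA3-2 at 27.4 and 21492. Other MEP1B probe sets gave 1.28 and 7.75 on the log2 scale against 8.15. PAG6 read 75.2 and 22022, at least 269.5-fold higher, and its other probe sets gave 7.76 and 8.10 on the log2 scale. The PAG genes are near-identical copies, so probes of one may bind transcripts of another. PAG6 and PPAG3 lie on 1 chromosome with 3 protein-coding genes between them in the RefSeq Sscrofa11.1 order.

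**Figure D2:**
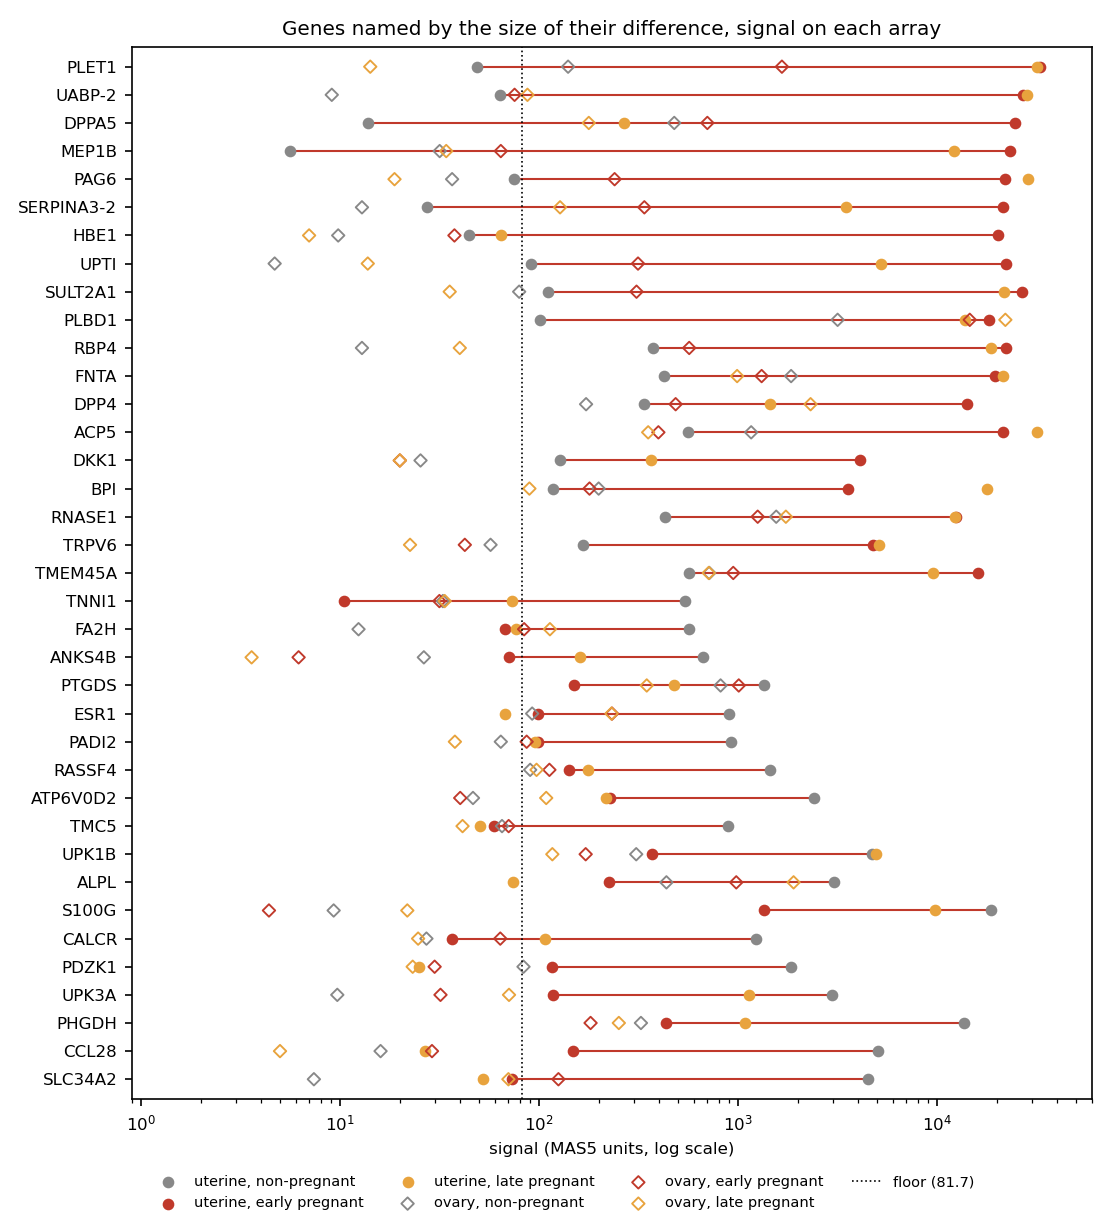
Signal in MAS5 units (x axis, log scale) of the genes named for the size of their difference on all 6 arrays, with filled circles for uterine and open diamonds for ovary arrays, colours for the stage, a red line from the non-pregnant to the early pregnant uterine signal, and a dotted line at the floor of 81.7. HBE1, DPPA5 and DKK1 were high on the early pregnant uterine array and low on the late one, while PAG6, UABP-2 and ACP5 were high on both.

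Among 22 measured genes of uterine gland secretions, 14 were 2-fold or more higher and 2 lower, against 9.18% and 10.3% of all genes, and their median stood 1.68 above that of all genes. Of the 18 above the floor on both arrays 11 were higher and 2 lower, with a median of 1.34 against 1.49. Osteopontin (SPP1), a ligand of integrins at the attachment site, read 1297 and 28071. The cysteine protease inhibitor CST6 read 580 and 8701, and transferrin (TF), the iron carrier of plasma, 62.0 and 574. SLPI, an inhibitor of leukocyte proteases, was already bright at 10750 and read 30569. These 4 genes were again high on the late pregnant array, with SPP1 at 28163 and SLPI at 32821. Stanniocalcin (STC1) read 109.5 and 749, with 170 late in pregnancy, although a second probe set of it gave 0.35. LIF, a cytokine of implantation, read 10.1 and 260, past the floor on the early array only. The lower genes of the list were the cytosolic calcium binder S100G, at 18568 and 1345, and prostaglandin D synthase (PTGDS), at 1345 and 149. GM2A, CST3, FGF7, LGALS3, CLU and MUC1 lay within 2-fold. UPTI and SLPI lie on 1 chromosome with 10 protein-coding genes between them.

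The placental list held 17 measured genes, of which 10 were higher by 2-fold or more and 0 lower by as much, and its summed signal was 6162 on the non-pregnant, 80418 on the early and 122140 on the late pregnant uterine array. Beside PLET1 and PAG6, PPAG3 read 45.9 and 8169, and GATA3, a transcription factor of trophoblast, 59.2 and 3168, although GATA3 probe sets ranged from 0.90 to 5.28. HAND1, a transcription factor of trophoblast and extraembryonic mesoderm, read 50.4 and 449. PHLDA2, an imprinted placental gene, read 210 and 1124. IGF2, the fetal growth factor, read 1049 and 3019 here and 16215 late in pregnancy, with other probe sets between -0.04 and 2.31. The 7 genes under 2-fold were the imprinted gene PEG10, at 351 and 435 with 8302 late in pregnancy, and GCM1, GATA2, DLX5, BMP4, PAPPA and CYP19A3. Restricted to the 8 genes above the floor on both arrays the list's median was 0.32, against 1.53 over all 17. PAG6, PPAG3, PLET1 and GATA3, which had the largest ratios of the list, were at or under the floor on the non-pregnant array and bright on the early one. They therefore counted as measured through the early array alone. The labels do not say whether conceptus tissue was taken with the uterus, and its part in the other differences was not tested.

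The embryonic globin gene was above the floor on the early pregnant uterine array alone of the 6. HBE1 read 44.3 on the non-pregnant, 20201 on the early pregnant and 64.1 on the late pregnant uterine array, at least 247-fold higher, and between 7 and 37.6 in the ovary. Adult beta globin (HBB) was lower, at 1440.1, 501 and 574, and HBM read 125.5 and 177. Of the 10 other red cell genes 5 were 2-fold or more higher and 0 lower, including the transferrin receptor TFRC, at 224 and 1296, the glycolytic enzyme BPGM, at 306 and 1202, and the haem synthesis enzyme UROD, at 679 and 2421. Of the 7 above the floor on both arrays 4 were higher and 0 lower. ALAS2, KLF1, EPB41, FECH and EPOR lay within 2-fold, with ALAS2 at 614 and 768 and KLF1 at 56.9 and 94.5. AHSP, at the floor on the non-pregnant array (81.7) and at 219 on the early one, read 638.5 late in pregnancy. Late in pregnancy BPGM read 1341, TFRC 623 and UROD 1011. Of 18 genes of yolk sac and fetal liver plasma proteins on the array, 7 were above the floor and 3 of those were 2-fold or more higher, RBP4, TF and the apolipoprotein APOA2. TF and APOA2, as well as AHSG and VTN, were under the floor on the non-pregnant array. They counted as measured through the early array alone. RBP4 and TF are also on the gland secretion list. AFP, ALB, TTR, APOB, AMBP and FGB were under the floor on both arrays, with AFP at 25.9 and 4.5 and ALB at 7.6 and 70.6. APOA2 read 38.3 and 956.5, and 14.2 late in pregnancy. Interferon gamma (IFNG), which pig trophoblast secretes around attachment and lymphocytes make elsewhere, read 74.0, 1719.6 and 64.8. Of 94 genes at 8-fold or more, HBE1, IFNG and APOA2 were the 3 that were at or under the floor again on the late pregnant array, a choice made after the values were seen. Of 6 measured conceptus products 3 were 2-fold or more higher and 0 lower. IFNG and CYP17A1 were among the higher ones, and both were under the floor on the non-pregnant array. IL1B was not higher, at 154 and 101, and IL1B2, also written in that list, had no probe set under that name.

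Genes of oestrogen synthesis and inactivation were mostly higher, and a few of progesterone synthesis were. Of 11 measured oestrogen genes 8 were 2-fold or more higher and 0 lower, with a median 2.93 above that of all genes (median 2.74, and 1.33 for the 5 genes above the floor on both arrays), and HSD17B8, named after its values were seen, read 833 and 475.5. Of 12 progesterone genes 4 were higher and 1 lower, and of the 9 above the floor on both arrays 1 was higher and 1 lower. STAR, which carries cholesterol into mitochondria, read 13.2 and 5573, at least 68.2-fold higher, with a second probe set at 3.82 on the log2 scale. CYP11A1, the side-chain cleavage enzyme, read 22.1 and 1502, and HSD3B1, which forms progesterone, 64.1 and 3101, with another HSD3B1 probe set at 2.48. All of these were under the floor in the non-pregnant uterus and bright on the late pregnant array too, with CYP11A1 at 4452. Genes of the later steps to oestrogen were likewise under the floor on the non-pregnant array, with CYP17A1 at 6.4 and 218, aromatase (CYP19A1) at 35.6 and 596, and HSD17B1, named after its values were seen, at 66.1 and 545. A second CYP19A1 probe set gave 1.07 against 2.87. CYP19A1 and HSD17B1 read 30.3 and 14 late in pregnancy, below the floor. HSD17B2, which oxidises oestradiol to oestrone, read 69.9 and 9701, at least 119-fold higher (5.34 on the log2 scale for another probe set against 6.89), and the oestrogen sulphotransferase SULT1E1 57.4 and 3192, at least 39.1-fold higher. HSD17B7, an enzyme of oestradiol and cholesterol synthesis, read 508 and 4089. The cholesterol transporter NPC1 read 331 and 1211, while TSPO, a protein of the outer mitochondrial membrane, was the lower gene of the progesterone list, at 3470.4 and 1495. Of 19 ovarian cell genes on the array 8 were above the floor, and HSD3B1, CYP19A1, CYP17A1 and SERPINE2 were the 4 at 2-fold or more, none of them above the floor on the non-pregnant array and each of them also on another list. The 19 genes summed to 1238.5 and 5442.5 on these uterine arrays, against 54760 on the non-pregnant ovary array, and the part of ovarian cells was not tested.

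Sex steroid receptors were lower. Oestrogen receptor alpha (ESR1) read 902 on the non-pregnant, 98.6 on the early and 67.8 on the late pregnant array, 9.15-fold lower at the early stage. The progesterone receptor (PGR) read 1498, 216 and 99.4. Both enzymes that interconvert cortisol and cortisone were higher, HSD11B2 at 828 and 4577 and HSD11B1 at 1234 and 4461. Across the 11 measured genes of this list 3 were higher and 2 lower, with a median near that of all genes.

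Of 9 measured prostaglandin genes 6 were 2-fold or more higher and 1 lower, with a median 2.16 above all genes. The median was 1.97, and 1.09 for the 4 genes above the floor on both arrays. The inducible cyclooxygenase PTGS2 read 61.3 and 1197, at least 14.7-fold higher. The carbonyl reductase CBR1, at 16.1 and 4954, and another reductase, AKR1CL1, at 27.7 and 552.5, were also at the floor in the non-pregnant uterus. PTGES, the inducible prostaglandin E synthase, read 545 and 2583, and the prostaglandin F receptor PTGFR 336 and 1319.9. PTGDS, at 1345 and 149, was the lower gene. PTGES3, another prostaglandin E synthase, lay within 2-fold, at 1486 and 1707.5.

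**Figure D3:**
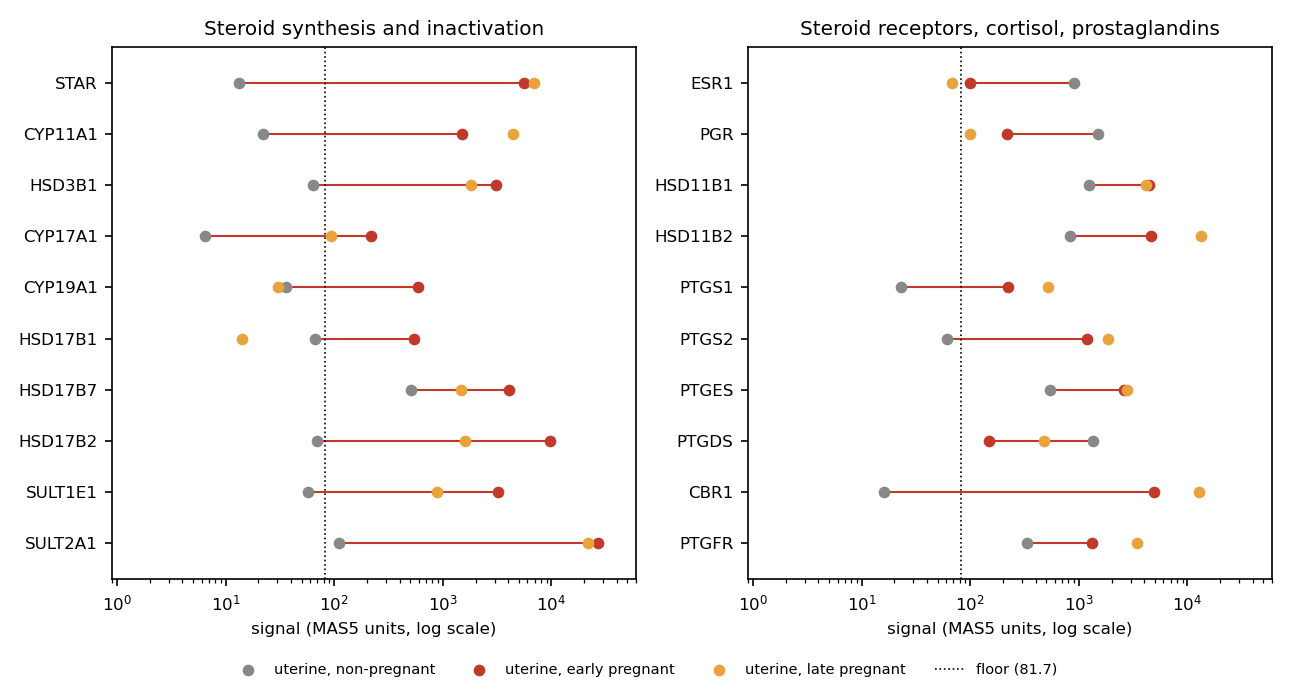
Signal in MAS5 units (x axis, log scale) of steroid, steroid receptor, cortisol and prostaglandin genes on the non-pregnant, early and late pregnant uterine arrays, with a red line from the non-pregnant to the early signal and a dotted line at the floor of 81.7. STAR, HSD17B2, SULT2A1 and CBR1 cross from below or near the floor to well above it, and ESR1, PGR and PTGDS lie lower on the early array.

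Nutrient transport genes were mixed, with more of them higher. Of 16 measured amino acid and glucose transporters 7 reached 2-fold on the higher side and 2 on the lower. Of the 13 above the floor on both arrays these were 4 and 2. The glucose transporter SLC2A1 read 612 and 7302, and the glutamate transporters SLC1A1 and SLC1A3 79.5 and 1563, and 56.7 and 822, although other SLC1A1 probe sets gave 0.17 to 1.45. The sodium-coupled glucose transporter SLC5A1 was lower, at 1039.7 and 117. In the calcium, phosphate and iron list 5 genes were higher and 3 lower. TRPV6 and the parathyroid hormone-related peptide PTHLH, at 45.6 and 1461, were higher, and the phosphate transporter SLC34A2, at 4479 and 73.2, was at least 54.8-fold lower. S100G and TRPV6, which work in the same route of calcium across epithelium, therefore differed in opposite directions. A second S100G probe set also lay lower, at -1.32.

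Serine synthesis genes were split. Its first enzyme, PHGDH, read 13680.1 and 436, 31.3-fold lower, and the second, PSAT1, 14958 and 2464. The third, PSPH, was not lower, at 7561 and 14289. The folate enzymes were split too, with MTHFD2 at 794 and 2154 and MTHFD1L at 976 and 378, and CTH, which makes cysteine, at 488 and 2239. Over the 14 genes 2 were higher and 4 lower, with a median 0.16 above that of all genes.

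Lysosomal enzymes were higher on the early array. Of 22 measured genes 11 were 2-fold or more higher and 0 lower, all 22 lay above 0, and the median stood 1.14 above that of all genes. With quantile normalization, or with a gene's probe sets averaged, 21 of the 22 lay above 0. CTSZ, a cysteine protease, read 862 and 14025, GLB1, which cleaves terminal galactose, 681 and 9125, and PSAP, the saposin precursor, 3162 and 21806. The protease CTSB read 8387 and 26516. Several lysosomal enzymes, ACP5 and CTSB among them, are also secreted by the glands and appear in that list.

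Immediate early genes, which respond quickly to stimulation of a cell, held 8 of 14 measured genes at 2-fold or more higher and 0 lower. Their median was 1.49, and 0.73 over 17 genes with the lower floor of 33.7. ATF3 read 142 and 1221, IER3 213 and 1277, BTG2 397 and 1799, and EGR1 260.4 and 1141. MYC read 1359.6 and 747. The ratio of GAPDH control signal at the 3-prime over the 5-prime end, a measure of RNA integrity, was 2.74 on the non-pregnant and 3.44 on the early array, and its part was not tested.

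**Figure D4:**
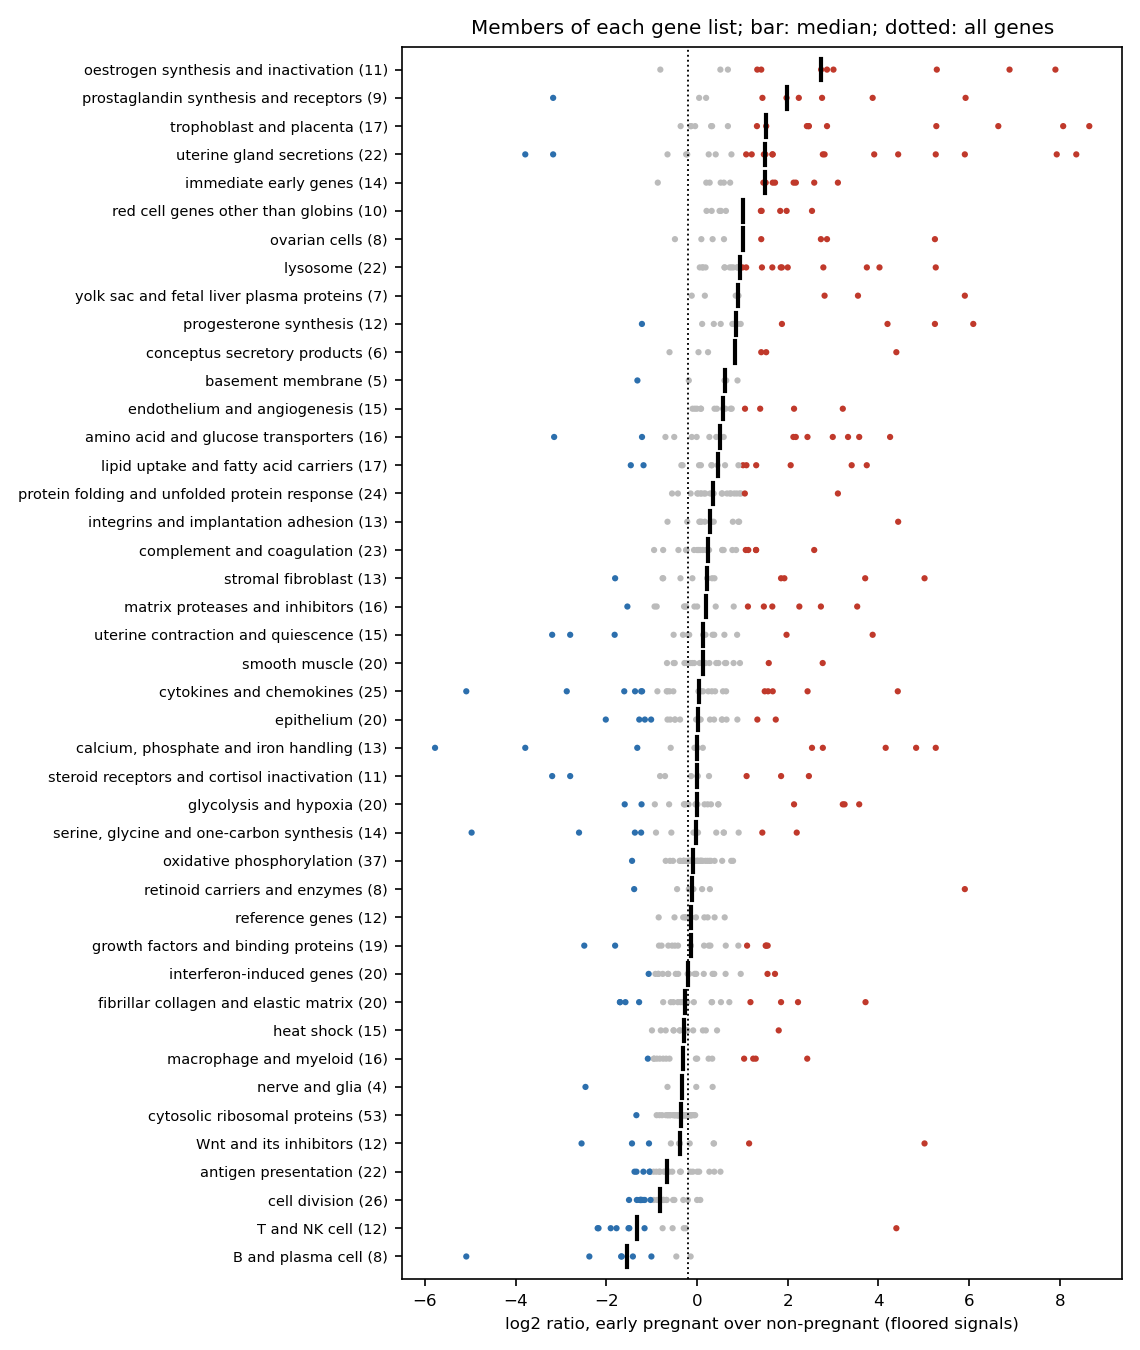
Log2 ratio of early pregnant over non-pregnant signal (x axis) for each measured member of the gene lists (rows, number of measured genes in parentheses), with members 2-fold or more higher in red and lower in blue, a black bar at the list's median, and a dotted line at the median of all genes, -0.19. Oestrogen, prostaglandin, placental and gland lists have their medians furthest to the right, and B and plasma cell, T and NK cell and cell division lists furthest to the left.

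Genes of the mucosal antibody system were lower. The chemokine CCL28, which draws antibody-forming cells to mucosa, read 5059.9 on the non-pregnant and 149 on the early pregnant array, 34.0-fold lower, and 26.9 on the late one. JCHAIN, the joining chain of secreted antibody, read 6347, 1224 and 96.6, and the receptor that moves it across epithelium, PIGR, 291 and 92.2. The plasma cell enzyme CD38 read 260.5 and 50.9. Of 8 measured B and plasma cell genes 6 reached 2-fold on the lower side and 0 on the higher, against 10.3% and 9.18% of all genes, with a median 1.35 below that of all genes. PIGR and CD38 lay close to the floor, and with the floor at the 60th percentile (246.2) 3 of 7 measured genes were lower and the median was -0.40 against -1.54.

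Most measured T and NK cell genes were lower. Of 12 measured genes 7 reached 2-fold on the lower side and 1, IFNG, on the higher, with a median of -1.32, and CD2, CD8B, SH2D1A and GNLY lay within 2-fold. With the floor at 246.2 these were 4 and 1 of 9, with a median of -0.76. CD3E and CD3D, chains of the T cell receptor complex, read 581 and 127, and 498 and 111, and the activating receptor KLRK1 737 and 197. All 3 were lower still on the late pregnant array, at 107, 16.5 and 57.8. In antigen presentation 5 of 22 genes were lower and 0 higher, led by the proteasome activator PSME1, at 4983 and 1917, the class I gene SLA-3, at 10259 and 4068, and the immunoproteasome subunit PSMB8, at 1929.9 and 851. Centring left 3 of the 22 lower. The SLA genes are close copies and probes may not tell them apart.

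Of 20 interferon-induced genes 2 were higher and 1 lower, with a median at that of all genes. ISG15, a ubiquitin-like protein, read 604 and 1988, and the antiviral enzyme RSAD2 366 and 1076. EIF2AK2, a kinase that responds to viral RNA, read 1645 and 786. In the macrophage list 4 of 16 genes were higher and 1 lower, and with the floor at 246.2 1 of 11 was higher and 1 lower, with a median of -0.75 against -0.32. Of the 13 macrophage genes above the floor on both arrays 2 were higher and 1 lower, and 9 lay below 0, with a median of -0.68. AIF1 read 1137 and 6127, and the scavenger receptor CD163 943 and 445. CD14, under the floor on the non-pregnant array, read 47.0 and 200.4. Among 25 cytokines and chemokines 5 were higher and 6 lower, and with the floor at 246.2 3 and 3 of 15. CXCL14, an epithelial chemokine, read 848 and 18246 with 1634 late in pregnancy, IL6 151 and 820.4, and CXCL12, a stromal chemokine, 737 and 101.

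No cell division gene was 2-fold or more higher, and 10 of 26 were lower, against 10.3% of all genes. The median stood 0.63 below that of all genes. MCM5, part of the replicative helicase, read 594 and 210.0, CDC20, which activates exit from mitosis, 585 and 233, CDKN3 1626 and 677, and NDC80, part of the kinetochore, 900.3 and 379.6. Centring left 8 genes at 2-fold or more lower. MCM5 probe sets ranged from -1.89 to -0.65.

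**Figure D5:**
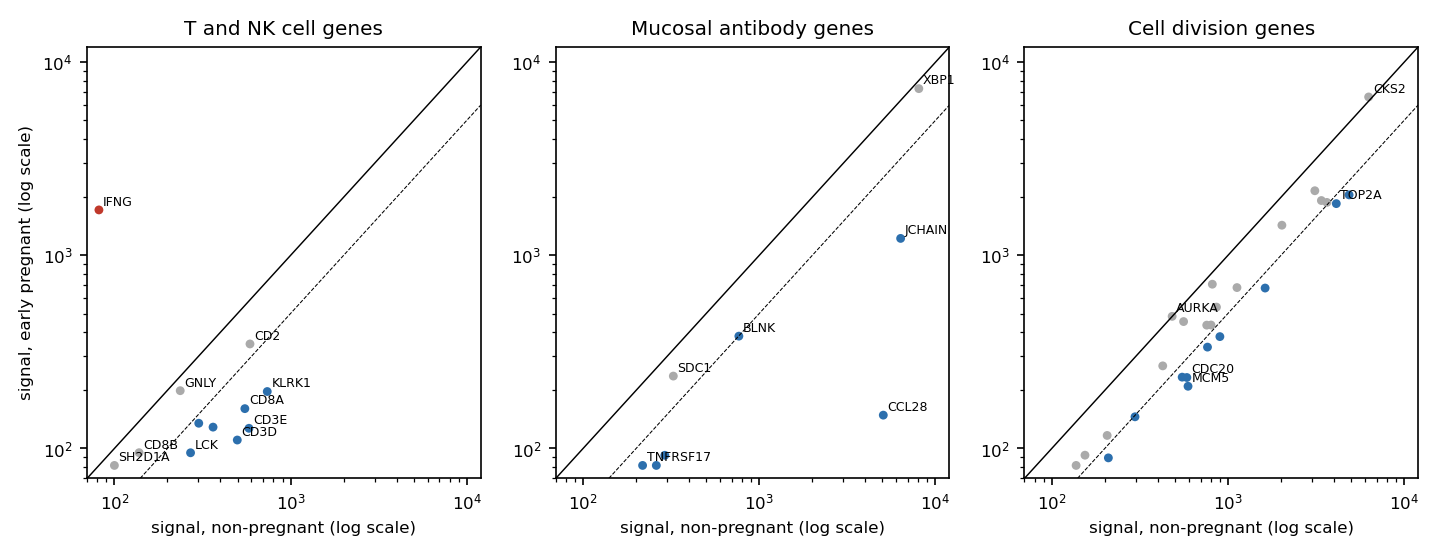
Signal of T and NK cell, mucosal antibody and cell division genes on the non-pregnant (x axis) and early pregnant (y axis) uterine array, in MAS5 units on log scales and raised to the floor of 81.7, with a solid line at equality, a dashed line at 2-fold lower, red for 2-fold or more higher and blue for 2-fold or more lower. IFNG is the red point, and JCHAIN and CCL28 lie furthest below the line among the antibody genes.

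The other lowest genes included several of epithelia. UPK3A and UPK1B, plaque proteins of stretchable epithelium, read 2949.8 and 117, and 4689 and 371, and UPK1B read 4929 late in pregnancy. The scaffold PDZK1 read 1851 and 117, alkaline phosphatase (ALPL) 3019.9 and 226, and the proton pump subunit ATP6V0D2 2421 and 228. RASSF4 and the arginine-modifying enzyme PADI2 read 1453 and 141, and 926.5 and 98.3. The calcitonin receptor CALCR, TMC5, ANKS4B, the fatty acid hydroxylase FA2H and the slow muscle troponin TNNI1 were at the floor on the early array, and CALCR was at least 15.1-fold lower, at 1236 and 36.7, with a second probe set at -0.91. In the epithelial list 2 of 20 genes were higher and 4 lower, with a median 0.21 above that of all genes, and centring left 2 lower. The tight junction genes CLDN4, at 1384 and 4612, and CLDN10, at 2529 and 627, differed in opposite directions, and the keratin KRT18 read 5960.1 and 2466.

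In stroma and vessels single genes stood out. THY1, a surface protein of fibroblasts, read 1183 and 15460.0, and periostin (POSTN) 208 and 2737. Of 13 measured stromal fibroblast genes, THY1 among them, 4 were 2-fold or more higher and 1 lower. In that list 8 genes lay above 0 and 5 below, with a median of 0.23. The protease inhibitor TIMP2 read 1291 and 14936, with a second probe set at 1.07 on the log2 scale against 3.53, and adrenomedullin (ADM), a vasodilator, 295 and 2742. VEGFA, the endothelial growth factor, read 818 and 3604, with other probe sets from 0.59 to 1.88. Of 15 endothelial and angiogenic genes 4 were higher and 0 lower. Of 20 genes of fibrillar and elastic matrix 4 were higher and 4 lower. The homeobox gene MSX1 read 1709 and 293, IGF1 804 and 230.0, and the growth factor binder IGFBP6 1827 and 326. Lipid handling held 6 of 17 genes higher and 2 lower, with lipoprotein lipase (LPL) at 102 and 1368, the nuclear receptor PPARG at 53.8 and 869 and the fatty acid carrier FABP3 at 1029 and 4305.

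Housekeeping lists held fewer genes past 2-fold than the 9.18% and 10.3% of all genes. None of 12 reference genes reached 2-fold, and 0 of 37 genes of oxidative phosphorylation were higher and 1 lower. The 53 ribosomal protein genes were all below 0, with a median 0.17 below that of all genes and 1 gene at 2-fold or more lower. After quantile normalization 6 of them lay above 0.

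On the 6 arrays together the early pregnant uterus was closest to the late pregnant one. Over 11733 probe sets above the floor on every array, the log2 signals of the early and late uterine arrays had a Pearson correlation of 0.928, and those of the early and non-pregnant ones 0.876, as a description across probe sets of arrays of 1 platform and scaling. The early and late uterine ratios share the non-pregnant array, so their likeness is no separate result. Trimmed mean signal was 500.1 on these arrays by the scaling, and 61.6% and 60.2% of probe sets lay above the floor.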

How the data were processed

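The deposited table holds 1 intensity value per probe set and array, which the authors computed with MAS5, per the submitters' processing notes; neither its version nor its settings are stated there. Signals are linear, and the trimmed mean is about 500.1 on each array. Of 24123 probe sets 124 controls were left out. Gene symbols came from the platform annotation (10069 probe sets with 1 symbol, 198 with several, 13732 with none), of which 9961 were checked by identifier against RefSeq Sscrofa11.1 and 0 changed. The brightest probe set by mean over the 6 arrays stood for a gene, and 1574 of 3019 probe sets past 2-fold have no usable name.

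Signals were floored at 81.7, log2 ratios taken, and 2-fold (log2 of 1) used as the mark, in Python 3.11.15 with numpy 2.4.6 and pandas 2.3.3, and the computation was tested on simulated data. With 1 array a group no p-value was computed, and the number of arrays limits the precision. Named genes are UPTI, ACP5, PAG6, HBE1 and PHGDH, the 12 highest and 12 lowest ratios, the 6 largest bounds each way, up to 4 genes per list, and members of the gland, placental, globin, serine and smooth muscle lists. EPCAM, HSD17B1, HSD17B8, PTGES, PTGES3, MYC, CD2, CD8B, SH2D1A and GNLY were named after their values were seen. So were ALAS2, KLF1, EPB41, FECH, EPOR, AFP, ALB, TTR, APOB, AMBP and FGB. The 45 gene lists (832 of 1221 written members are on the array) and the genes were chosen with earlier results of these data known. Other floors, a pseudocount of 16, quantile normalization, centring, averaged probe sets and a floor on both arrays were tried.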

Additional observations from a re-analysis of the deposited data

Results flagged for a closer look

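Of the 230 named genes measured, 14 were 2-fold or more apart in opposite directions in uterus and ovary between the early pregnant and non-pregnant arrays. Many of the named genes were chosen for a large uterine ratio, and the share over all genes was not computed. With 1 array a group the difference between tissues was not tested. Log2 ratios were 5.26 in uterus and -1.55 in ovary for ACP5, 4.44 and -1.06 for SPP1, and 4.43 and -1.72 for CXCL14. The steroid enzymes HSD17B7 (3.01 and -1.43) and HSD11B2 (2.47 and -1.17), the imprinted gene PHLDA2 (2.42 and -1.60) and the fatty acid carrier FABP3 (2.07 and -2.30) had the same pattern. So did IER3 (2.58 and -1.05), CHI3L1 (at least 1.24, since it was under the floor on the non-pregnant uterine array, and -1.13) and the interferon-induced genes ISG15 (1.72 and -1.77) and RSAD2 (1.55 and -1.67). The other genes were lower in uterus and higher in ovary, namely ALPL (-3.74 and 1.17), ESR1 (-3.19 and 1.33) and IGFBP6 (-2.49 and 1.48).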

How the results depend on the processing

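Of 158 named genes at 2-fold or more, 144 kept that size and direction under every alternative that measured them, and none reversed. Every alternative used the same arrays, and many genes were named for a large ratio, so this count is no replicate check. Of the other 14, 9 were lost with the higher floor (CD38 to -0.08, PIGR to -0.24, LIF to 0.08 and HAND1 to 0.87 among them), EIF2AK2, PSMB10 and CD163 with centring, and IGF2 and TEK with averaged probe sets. With the floor at the 25th percentile (33.7) 2452 probe sets were lower, at the 60th (246.2) 912 were higher and 893 lower, and with a pseudocount of 16 and no floor 2405 and 3041, since these settings admit more or fewer probe sets. Of the lists 16 had a median at least 0.5 above all genes and 3 at least 0.5 below, and 14 to 17 and 3 to 4 under the alternatives. Of 43 list medians 10 changed sign in at least 1 setting other than centring, which adds 0.17 to every ratio alike, among them that of the Wnt genes, -0.38 and 0.07 with averaged probe sets. With genes above the floor on both arrays alone, 5 oestrogen genes and 8 placental genes remained, with medians of 1.33 and 0.32. No paired analysis was possible because each group has 1 array. Precision is limited by that number, and signals near the floor have no order.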

Other observations

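Genes with the largest ratios in the uterus were also looked at on the ovary arrays, a set chosen after the values were seen. Of the 17 genes at 64-fold or more in the uterus, 12 were above the floor on the early pregnant ovary array, 5 on the non-pregnant and 6 on the late pregnant one. Of all probe sets, 59.7%, 60.6% and 57.4% lay above the floor on these arrays, in the same order. The early pregnant signal was the highest of the 3 ovary arrays for 13 of 17, and the share of all genes with that order was not computed. PAG6 read 36.6, 239.8 and 18.8 on the non-pregnant, early and late pregnant ovary arrays, UPTI 4.7, 314 and 13.8, SULT2A1 79.5, 309 and 35.6, and PLET1 140, 1661 and 14.2. The median of the ovary signal as a share of the uterine one at the early stage was 1.16%. STAR and PLBD1, which were bright on all 3 ovary arrays, were the exceptions, with 421% and 79.6%.

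Water, folate and amino acid handling genes outside the lists were also far apart, again chosen after their values were seen. The water channel AQP8 read 31.5 on the non-pregnant and 8817 on the early pregnant uterine array, while the channel AQP3 read 14148 and 2454. The folate receptor FOLR1 read 8 and 5368, although a second probe set of it gave -0.29. ASS1, which makes the precursor of arginine, read 95.2 and 2647, and ARG2, which breaks arginine down, 1473 and 196. The cytochrome CYP3A39 read 61.6 and 11990.1, heparanase (HPSE) 63 and 5958, with its other probe sets from 0.70 to 3.90 on the log2 scale against 6.19, and the serpin SERPINB7 144 and 3598 with 186 late in pregnancy. UPK3BL2 was lower beside UPK3A and UPK1B, at 1449 and 255, and UPK2 and UPK1A were near or under the floor on both arrays.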
